A study of Homo sapiens with 2 samples.

Results

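The transcripts of the respiratory chain and ATP synthase were measured in single cells of CHLA9 and TC71, which are Ewing sarcoma cell lines. Members were the genes whose symbols start with MT-, NDUF, UQCR, ATP5F, ATP5M or ATP5P, or with COX followed by a digit from 4 to 8 and a letter, with pseudogenes and antisense genes left out. The rule found 106 of 33538 annotated genes, 13 of them encoded in the mitochondrial genome and 93 in the nucleus. The nuclear members comprised 37 subunits and 8 assembly factors of complex I, 8 subunits of complex III, 18 of complex IV and 17 of ATP synthase (complex V). The remaining nuclear members were the supercomplex factor COX7A2L, 2 readthrough genes and 2 retrocopies.

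Each line was represented by 1 library made with a 10x Genomics 3′ kit, which tags each RNA molecule with a unique molecular identifier (UMI) near its poly(A) tail. CHLA9 was grown in IMDM with 20% FBS and an insulin, transferrin and selenite supplement, and TC71 in RPMI-1640 with 10% FBS. Neither line was treated, and the CHLA9 library was sequenced again on a second instrument. Line, medium, library and sequencing therefore cannot be told apart, no test between lines was possible, and all intervals are 95% intervals that cover counting error only.

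Barcodes under 5000 UMIs or 2000 genes, or over 30% mitochondrial UMIs, were left out, which kept 4567 of 5077 in CHLA9 and 1875 of 8468 in TC71. The medians were 34580 UMIs and 6521 genes per CHLA9 cell, and 32512 UMIs and 5968 genes per TC71 cell. All 13 genes of a fixed list of Ewing sarcoma markers were detected in both libraries, with summed levels of 5831 and 3989 CPM. The 6 marker lists of other cell types summed to between 0.0729 and 1.88 CPM, and 3 kept cell barcodes occurred in both libraries.

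The respiratory chain passes electrons from NADH and succinate to oxygen through complexes I to IV, and ATP synthase uses the resulting proton gradient to make ATP. Complex II is entirely nuclear-encoded, whereas complexes I, III, IV and V combine subunits from both genomes, so that their assembly needs products of both. Human mitochondrial DNA is transcribed as long polycistronic RNAs that are cut into separate messengers, and it encodes the catalytic core of complex IV (MT-CO1, MT-CO2 and MT-CO3) and hydrophobic membrane subunits of the other complexes.

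In 2 places neighbouring mitochondrial reading frames overlap and share 1 messenger, so that a 3′ tag cannot be divided between them. The overlaps are printed from the hg38 mitochondrial genome, of 16569 bases, with 6 bases on either side, on the plus strand from 5′ to 3′, and the capitals mark the start codon of the downstream gene. The overlap of MT-ATP8 with MT-ATP6 spans 46 bases (window chrM:8521-8578) and that of MT-ND4L with MT-ND4 spans 7 bases (window chrM:10754-10772).
MT-ATP8 and MT-ATP6: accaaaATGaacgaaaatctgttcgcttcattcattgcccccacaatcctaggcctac
MT-ND4L and MT-ND4: actccaATGctaaaactaa
Beside these overlaps, MT-ATP8 held 4584 UMIs in CHLA9 and 2585 in TC71, against 1296176 and 732801 for MT-ATP6. MT-ND4L held 14942 and 8486 UMIs, against 956811 and 653747 for MT-ND4. The downstream gene carried nearly all UMIs of each pair, so the counts of MT-ATP8 and MT-ND4L are not levels of their own.

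TC71 carried a larger share of respiratory transcripts from both genomes than CHLA9. Mitochondrial genes made up 7.67% of all UMIs in CHLA9 (exact Clopper-Pearson interval 7.66 to 7.67) and 9.55% in TC71 (9.54 to 9.55). The 93 nuclear members made up 2.21% of non-mitochondrial UMIs in CHLA9 (2.21 to 2.22) and 3.18% in TC71 (3.18 to 3.19), 1.44-fold higher in TC71. These are shares of the RNA captured, not molecules per cell.

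The lines also differed in which complexes held the mitochondrial transcripts. The 3 complex IV messengers took 4.82% of all UMIs in CHLA9 and 5.07% in TC71, a 1.05-fold difference. The 7 complex I messengers took 1.47% and 2.41%, and the 2 of ATP synthase 0.739% and 1.21%, each 1.64-fold higher in TC71. MT-CYB, the cytochrome b of complex III, took 0.635% and 0.854%, 1.35-fold higher in TC71. In the nuclear genome the order was different, with 1.51-fold higher shares in TC71 for complex IV subunits, 1.53-fold for ATP synthase, 1.37-fold for complex I and 1.27-fold for complex III.

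As a result, the balance of the genomes differed most between the lines in complex IV. Complex IV held 11.9 mitochondrial UMIs for each nuclear subunit UMI in CHLA9 and 8.50 in TC71. In complex I the ratio was 2.24 in CHLA9 and 2.73 in TC71, in complex III 2.25 and 2.43, and in ATP synthase 1.18 and 1.30. Complex IV was thus the only one of the 4 complexes whose ratio was higher in CHLA9.

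**Figure D1:**
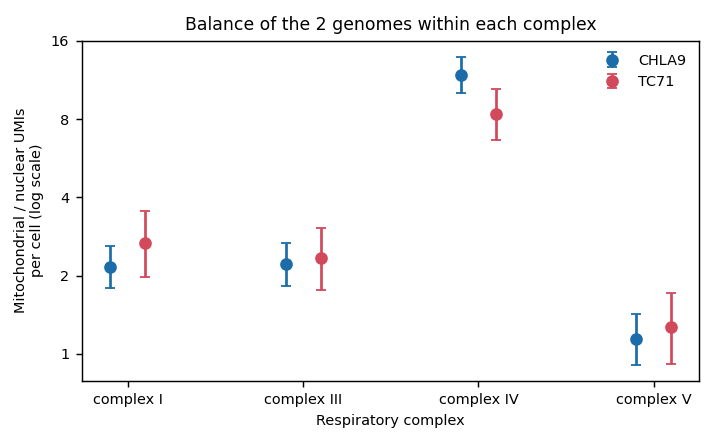
Mitochondrial UMIs divided by nuclear subunit UMIs of the same complex in each cell (log scale), for complexes I, III, IV and V in CHLA9 (4567 cells) and TC71 (1875 cells). Points are medians over cells and bars run from the 25th to the 75th percentile of cells; the median for complex IV was 11.8 in CHLA9 and 8.34 in TC71.

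Within the mitochondrial transcripts, CHLA9 held more MT-CO1 and TC71 more MT-ND3, MT-ND4 and MT-ATP6. MT-CO1, the copper and heme subunit that reduces oxygen, made up 20.1% of mitochondrial UMIs in CHLA9 and 14.3% in TC71. It was the only mitochondrial gene with a higher level in CHLA9, at 15412 CPM of all UMIs against 13675 (1.13-fold). MT-CO2 and MT-CO3, the other core subunits of complex IV, made up 26.3% and 16.5% in CHLA9 and 24.0% and 14.8% in TC71.

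MT-ND3, a small membrane subunit of complex I (chrM:10059-10404), stood at 1845 CPM in CHLA9 and 3933 CPM in TC71, 2.13-fold higher in TC71, and was the only mitochondrial gene past 2-fold. MT-ND4 (chrM:10760-12137), a proton-pumping subunit, stood at 5439 and 10773 CPM, 1.98-fold higher. MT-ATP6, which forms the proton channel of ATP synthase with the c-ring, stood at 7369 and 12076 CPM, 1.64-fold higher. The other complex I messengers did not follow this size of difference, although all share the polycistronic origin: MT-ND1 differed 1.22-fold, MT-ND2 1.37-fold and MT-ND5 1.15-fold, all higher in TC71.

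MT-ND6 (chrM:14149-14673) is the only member read from the light strand and lacks a long poly(A) tail. Its level was 256 CPM in CHLA9 against 320 CPM in TC71, and it made up 0.333% and 0.335% of mitochondrial UMIs. Divided by gene length, MT-CO2, MT-CO3 and MT-ATP6 ranked highest in both lines, with 29438, 16186 and 10820 CPM per kb in CHLA9 and 33532, 18023 and 17733 in TC71. MT-ND3 was in place 6 of 13 per kb in CHLA9 and in place 4 in TC71, against 9 and 8 without the division. MT-CO1 was in places 4 and 5 per kb, against 2 and 3. The 3′ kit tags a molecule near its tail, so counts need not rise with gene length. The division raises short genes, and places per kb are not a ranking of molecules. Nuclear copies of mitochondrial sequence can share these reads and could not be told apart.

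**Figure D2:**
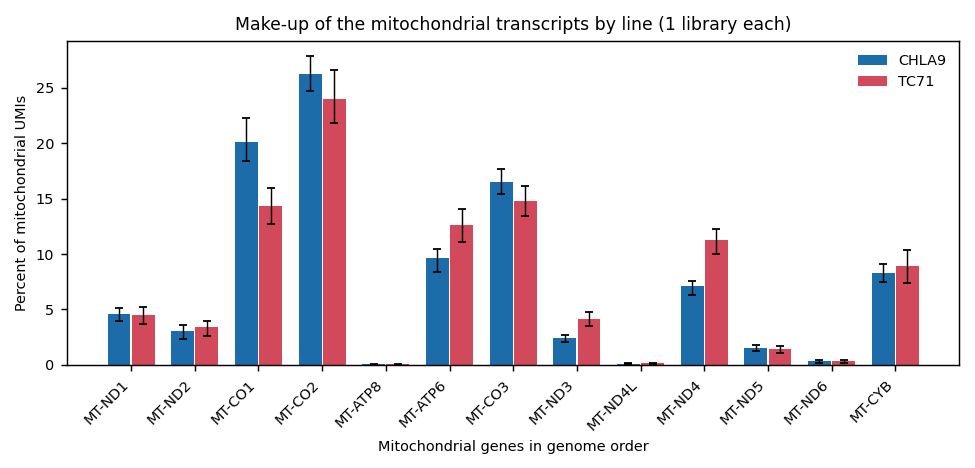
Percent of mitochondrial UMIs held by each of the 13 mitochondrial genes, in genome order. Bars show the summed share in CHLA9 and TC71, and the black whiskers run from the 25th to the 75th percentile of cells; MT-CO1 made up 20.1% in CHLA9 and 14.3% in TC71, MT-ND4 7.09% and 11.3%.

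Among the nuclear members, 83 reached 10 CPM of non-mitochondrial UMIs in at least 1 line and 10 did not. Of the 83, 71 (85.5%) were higher in TC71, against 41.1% of all 9485 nuclear genes of that level. None was at least 2-fold higher in CHLA9, where the share over all these genes was 15.4%, and 10 were at least 2-fold higher in TC71, where it was 9.55% (25.0% in either direction). The median log2 ratio of CHLA9 over TC71 was -0.40 over the members and 0.18 over all such genes. The median of all genes of at least 10 CPM thus lay toward CHLA9 while that of the members lay toward TC71. The shift of all genes depended on level. Among genes of at least 100 CPM the median was 0.03 over all genes and -0.41 over 74 members.

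The 5 largest differences were in small accessory subunits. NDUFB9 (chr8:124539101-124580648), an accessory subunit of the membrane arm of complex I, stood at 242 CPM in CHLA9 and 1057 in TC71, 4.36-fold higher. ATP5ME (chr4:672436-674330), which sits at the dimer interface of ATP synthase, stood at 149 and 587 CPM, 3.94-fold higher. UQCR10 (chr22:29767369-29770413), a small subunit of complex III, stood at 136 and 407 CPM, 2.99-fold higher.

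COX7B (chrX:77899440-77907376), a subunit of complex IV, stood at 243 CPM in CHLA9 and 629 in TC71, 2.58-fold higher. ATP5MPL (chr14:103912288-103928269), a small protein associated with ATP synthase, stood at 245 and 601 CPM, 2.45-fold higher. NDUFAF4, NDUFB3, ATP5MD, ATP5PF and COX7A2 were the other members past 2-fold, by 2.40-fold to 2.02-fold. These 10 of 83 members came from all 4 complexes and from the assembly factors, and their count was near the share of 9.55% over all genes.

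The members higher in CHLA9 differed less. NDUFA9 (chr12:4649095-4694317), an accessory subunit at the junction of the complex I arms, stood at 107 CPM in CHLA9 and 58.9 in TC71, 1.81-fold higher. NDUFS8, which carries iron-sulfur clusters, stood at 240 and 182 CPM, UQCRC1, a core protein of complex III, at 212 and 168 CPM, and COX6C of complex IV at 403 and 353 CPM, and they were 1.32-fold, 1.26-fold and 1.14-fold higher in CHLA9.

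The catalytic and the accessory subunits of complex I were then set side by side, a grouping made after the values were seen. The 7 nuclear core subunits, which carry the flavin and the iron-sulfur clusters, had a median log2 ratio of 0.01. The 30 accessory subunits had a median of -0.39. Core subunits took 0.138% of non-mitochondrial UMIs in CHLA9 and 0.125% in TC71, and accessory subunits 0.571% and 0.849%. In ATP synthase, ATP5F1A and ATP5F1B, also paired after the values were seen, had log2 ratios of -0.03 and -0.38. The median over the 17 subunits was -0.54. ATP5MC2 (-0.13), ATP5F1C (-0.23), ATP5F1D (-0.32) and ATP5MC1 (-0.34) also lay nearer to 0 than ATP5F1B, so the pair did not stand apart.

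**Figure D3:**
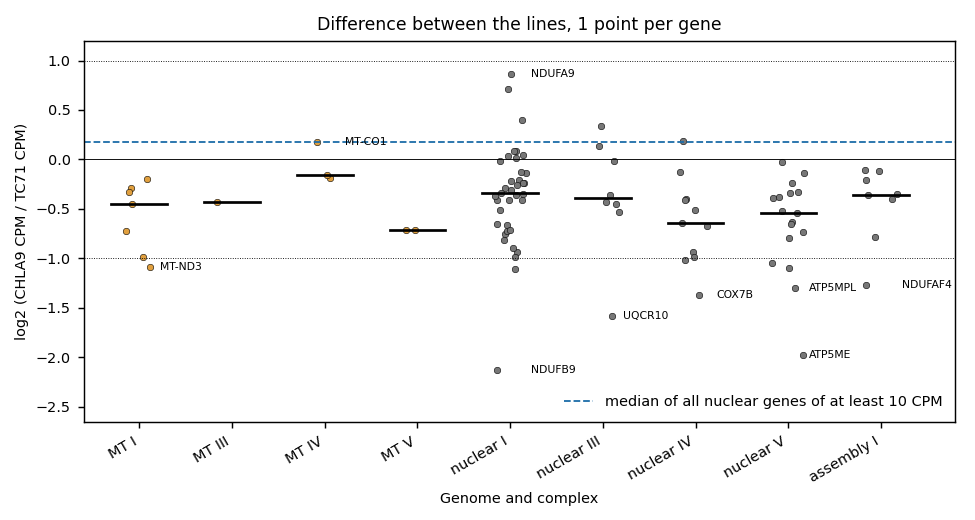
The log2 ratio of CHLA9 over TC71 level for each member of at least 10 CPM in 1 line, by genome and complex (MT, mitochondrial genes in CPM of all UMIs; nuclear genes in CPM of non-mitochondrial UMIs). Black lines mark group medians, the dashed line the median of all nuclear genes (0.18) and the dotted lines 2-fold; most nuclear members lie below 0.

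Many nuclear respiratory genes have promoters with sites for NRF1, ETS-family factors and YY1, so the windows from 250 bases before to 50 after each start site (RefSeq, GRCh38.p14) were searched on both strands. Promoters were matched for 74 of the 93 nuclear members. The NRF1 letters (GCGCA, then 1 base of any kind, then GCGC) were found in 16 of the 74 (21.6%), in 6.28% of all 27305 promoters and in 14.0% of the 7571 promoters of genes of at least 10 CPM. The ETS letters CCGGAAG were found in 19 (25.7%), against 10.7% and 22.2%, and the YY1 letters AAGATGGCG in 7 (9.46%), against 1.85% and 4.86%. Among the 9 matched members that were at least 2-fold higher in TC71, 3 held the NRF1 letters, 4 the ETS letters and 1 the YY1 letters.

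NRF1 matches that lie wholly upstream of the start site are printed for the members with the largest line differences in either direction, on the strand of the gene, with the match in capitals and 10 bases on either side. They come from members higher in TC71 (ATP5ME and ATP5MPL, which RefSeq names ATP5MJ) and higher in CHLA9 (NDUFA9 and UQCRC1), and the same letters thus occurred in members of either direction. UQCR10 also holds the letters, from 8 bases before its start site and across it, and that match is not printed. A match is a description of the letters and not a measured binding site.
ATP5ME, chr4:674476-674505, minus strand: cgcagcaactGCGCAGGCGCagccgatgat
ATP5ME, chr4:674431-674460, minus strand: cagcctttgtGCGCGTGCGCctcacgtgac
ATP5MPL, chr14:103921527-103921556, minus strand: tcccctgcgcGCGCCTGCGCgctcggtgac
NDUFA9, chr12:4649024-4649053, plus strand: ttcttggttaGCGCTTGCGCagacaggcga
UQCRC1, chr3:48609674-48609703, minus strand: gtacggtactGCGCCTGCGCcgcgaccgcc

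Complex IV subunits exist as isoforms with restricted tissues, and both lines expressed the widespread form of each. COX4I1 stood at 311 CPM in CHLA9 and 614 in TC71, while COX4I2, the lung and hypoxia form, had 0 UMIs in both. COX6A2 and COX7A1, the heart and skeletal muscle forms, and COX7B2, a testis form, also had 0 UMIs in both lines, which by a floor of 3 counts per library allows up to 0.0185 CPM in CHLA9 and 0.0547 CPM in TC71. In the same sets COX6A1 stood at 357 and 569 CPM, and COX7A2 at 312 and 631 CPM.

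COX8C, a testis form of subunit 8, was detected at a low level and almost wholly in CHLA9. It had 669 UMIs in CHLA9, or 4.12 CPM (exact Poisson interval 3.81 to 4.44), and 19 UMIs in TC71, or 0.346 CPM (0.208 to 0.541), an 11.9-fold difference. After thinning to 5000 UMIs, a COX8C UMI was found in 1.80% of the CHLA9 cells and 0.160% of the TC71 cells. Endothelial markers (PECAM1, CDH5 and VWF), which these lines should lack, were found in 0.0657% of CHLA9 cells, and in 0 of 1875 TC71 cells, which allows a share of up to 0.160% by a floor of 3 counts. Without thinning, their summed levels were 0.240 and 0.0729 CPM of non-mitochondrial UMIs. Other such lists were found more often. Immune markers were found in 0.657% of CHLA9 and 0.160% of TC71 cells (1.43 and 0.273 CPM). Epithelial markers were found in 0.591% and 0.960% (1.36 and 1.42 CPM), and liver markers in 0.328% and 0.853% (0.696 and 1.88 CPM). COX6B2, another testis form, had 167 and 24 UMIs, 1.03 and 0.437 CPM. NDUFA4L2, a hypoxia-induced form of NDUFA4, had 101 and 108 UMIs, 0.622 and 1.97 CPM. In the thinned cells COX6B2 was found in 0.591% and 0.160%, and NDUFA4L2 in 0.241% and 1.01%. COX6B2 thus lay near the immune, epithelial and liver lists. NDUFA4L2 lay near them in CHLA9 and just above every list of other cell types in TC71. COX8C in CHLA9 lay further above every such list. These are single genes set against lists of 2 to 5 genes.

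ATP5MC1, ATP5MC2 and ATP5MC3 encode the same mature c-ring protein with different import sequences. Of their summed UMIs, ATP5MC3 held 35.5% in CHLA9 and 44.5% in TC71, ATP5MC2 31.1% and 24.8%, and ATP5MC1 33.4% and 30.7%. ATP5MC3 stood at 753 and 1301 CPM and differed 1.73-fold, whereas ATP5MC2 stood at 660 and 724 CPM and differed 1.10-fold. The readthrough genes ATP5MF-PTCD1 and NDUFC2-KCTD14 held at most 10 UMIs in a library, and the retrocopies UQCRHL and ATP5MGL share sequence with UQCRH and ATP5MG, so that their counts are uncertain.

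The lists of other genes of respiration had medians on either side of 0, against 0.18 over all genes. Complex II with its assembly factors had a median log2 ratio of 0.28 over 8 genes, and SDHAF3 was 2.17-fold higher in TC71. Assembly factors of complex I outside the rule had a median of 0.17 over 9 genes (FOXRED1 2.02-fold higher in CHLA9), those of complex III -0.10 over 6 (UQCC2 2.52-fold higher in TC71) and those of complex V 0.45 over 4 (ATPAF2 2.52-fold higher in CHLA9). Of 20 complex IV assembly factors, with a median of -0.16, COA3 (3.75-fold), SURF1 (2.36-fold) and SCO1 (2.27-fold) were higher in CHLA9, and COX14 (2.42-fold) and PET117 (2.35-fold) in TC71.

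CYCS, the cytochrome c that carries electrons to complex IV, stood at 417 CPM in CHLA9 and 909 CPM in TC71, 2.18-fold higher, and COQ8A of coenzyme Q synthesis was 2.16-fold higher in CHLA9, in a list of 13 with a median of -0.02. Factors of mitochondrial transcription and RNA stability had a median of 0.02 over 22 genes. Among them SLIRP, which stabilises mitochondrial messengers with LRPPRC, stood at 88.1 and 350 CPM, 3.97-fold higher in TC71, and TFB1M was 2.70-fold higher in TC71. MTERF3 and FASTK were 2.57-fold and 2.48-fold higher in CHLA9.

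The 8 genes of mitochondrial DNA replication had a median of -0.02, with TOP1MT 2.03-fold higher in CHLA9. Nuclear regulators of respiratory genes had a median of 0.00 over 10 genes and none past 2-fold. The mitochondrial ribosome had a median of -0.29 over 75 genes, with MRPL13 (6.13-fold), MRPL33 (2.39-fold) and MRPL18 (2.28-fold) higher in TC71 and MRPL24 (2.21-fold) in CHLA9.

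Across cells, mitochondrial transcripts outnumbered those of the nuclear members in 4555 of 4567 CHLA9 cells and 1851 of 1875 TC71 cells. The median cell held 3.69 mitochondrial UMIs per nuclear member UMI in CHLA9 and 3.23 in TC71. The 5th and 95th percentiles were 2.40 and 5.38 in CHLA9 and 1.73 and 7.82 in TC71. The standard deviation of the log2 ratio over cells was 0.47 and 0.80, against 0.06 and 0.07 for counting error alone, so the balance varied more among TC71 cells.

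The mitochondrial and the nuclear share were only weakly related across cells, and with a different sign in the lines. With every cell thinned to 5000 UMIs, the Spearman correlation was 0.165 in CHLA9 (4567 cells) and -0.138 in TC71 (1875 cells), where the cells of a line share 1 library. Within phases the correlation was 0.103 to 0.114 in CHLA9 and -0.243 to -0.0784 in TC71. The sign in CHLA9 turned to -0.0700 when the score was the mean natural log of 1 plus UMIs per 10000, and the value in TC71 was then -0.453, so the sign in CHLA9 depended on the score. The TC71 value was nearer to 0 in some subsets, at -0.0801 in cells of up to 15% mitochondrial UMIs and -0.0895 in cells of at least 10000 UMIs. It was -0.0385 in the tertile of highest UMIs and -0.00275 in that of highest MALAT1. It was further from 0 in others, at -0.262 in the 146 cells over 15% mitochondrial UMIs. In the tertiles of lowest UMIs and lowest MALAT1 it was -0.260 and -0.235. The 43 CHLA9 cells over 15% had a correlation of -0.504.

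**Figure D4:**
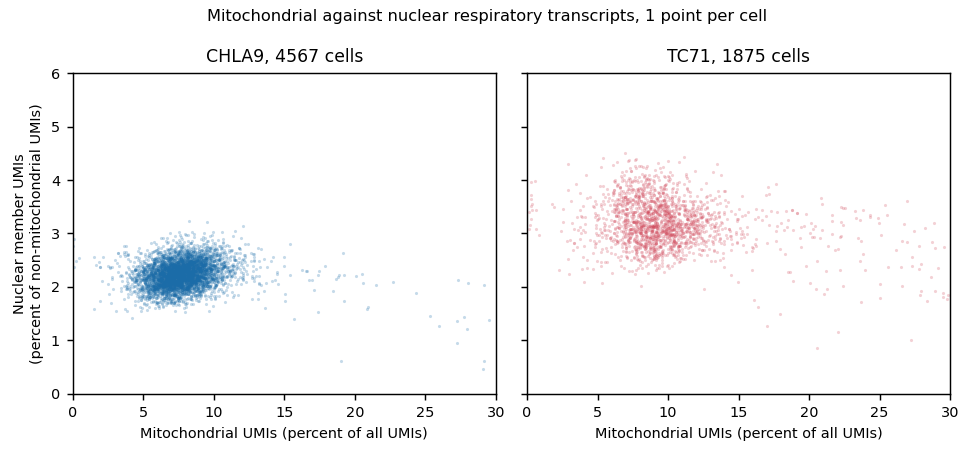
Each point is a cell, with the mitochondrial percent of all UMIs on the x axis and the percent of non-mitochondrial UMIs from the 93 nuclear members on the y axis, for 4567 CHLA9 and 1875 TC71 cells at full depth. The cells of TC71 lie higher on the y axis, with a median of 3.16% against 2.23% in CHLA9, and spread wider on the x axis.

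In bands of mitochondrial percent, the nuclear share was lowest in the highest band. In CHLA9 it was 2.14% in the 223 cells of under 5%, 2.33% in the 360 cells of 10 to 15% and 1.80% in the 20 cells of 20 to 30%. In TC71 it was 3.01% in the 77 cells of under 5%, 3.22% in the 1076 cells of 5 to 10% and 2.79% in the 82 cells of 20 to 30%. Depth moved with the bands, and the median fell from 36118 UMIs in the lowest band to 13842 in the highest in CHLA9. In TC71 depth was low at both ends, with 20075 UMIs in the lowest band, 33803 in that of 5 to 10% and 12634.5 in the highest. The part of depth in these values was not tested. MT-CO1 made up between 19.0% and 20.2% of mitochondrial UMIs in every band of CHLA9 and between 13.9% and 18.7% in those of TC71.

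The nuclear members of the 4 complexes varied together across cells, as their counts among 7000 non-mitochondrial UMIs of each cell showed (4547 and 1777 cells of at least 10000 UMIs). The Spearman correlation between complex I and ATP synthase subunits was 0.297 in CHLA9 and 0.452 in TC71, and between complex I and complex IV subunits 0.228 and 0.434. Single members were more weakly related to the sum of the others, with a median correlation of 0.10 and 0.16 over 68 members of at least 100 CPM in both lines. ATP5MC3 (0.255 and 0.365), UQCRH (0.229 and 0.272), COX7B (0.159 and 0.269), NDUFA4 (0.147 and 0.272) and NDUFS5 (0.156 and 0.246) had the highest mean. NDUFA10, ATP5F1A, ATP5PB and NDUFV1 were among the lowest, all between -0.0166 and 0.0840. UQCRH stood at 1243 and 1594 CPM, NDUFA10 at 118 and 111, NDUFV1 at 130 and 129 and ATP5F1A at 503 and 512. The part of level in this ranking was not tested.

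The genes outside the rule with the highest mean correlation were the ribosomal proteins RPL11 (0.293 and 0.428), RPL19 (0.287 and 0.391), RPL32 (0.215 and 0.442), RPS7 (0.288 and 0.361) and RPL8 (0.229 and 0.397). Over all 1244 genes of that level outside the rule the median correlation was 0.0232 and 0.0128. All these genes share the depth and the composition of the same cells.

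MALAT1, an abundant long noncoding RNA that stays in the nucleus, moved against the nuclear members both across cells and between the lines, and was looked at after the values were seen. It made up 1.82% of non-mitochondrial UMIs in CHLA9 and 0.837% in TC71, and its correlation with the nuclear members was -0.471 and -0.531. Cytosolic ribosomal protein genes made up 17.4% and 20.5%, with correlations of 0.429 and 0.599. In CHLA9 the nuclear share was 2.38% in the tertile of cells lowest in MALAT1 and 2.07% in the highest tertile, and in TC71 3.48% and 2.93%. The tertiles were cut within each line, with median MALAT1 of 0.790%, 1.52% and 2.63% in CHLA9 and 0.311%, 0.662% and 1.24% in TC71. TC71 was higher in every tertile, but tertiles of the same rank do not hold cells of the same MALAT1 level. The part of MALAT1 and of RNA quality in these values was not tested.

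Among the mitochondrial genes MT-ND6 stood apart in its relation to the nuclear members. Its correlation with their count was -0.199 in CHLA9 and -0.575 in TC71, MT-ND2 had -0.103 and -0.343 and MT-ND5 -0.0369 and -0.397, whereas MT-CO2 had 0.238 and 0.0982 and MT-CYB 0.183 and 0.0352. The share of MT-ND6 in the mitochondrial UMIs was higher in cells with more MALAT1, with a correlation of 0.225 and 0.516. From the lowest to the highest MALAT1 tertile it went from 0.286% to 0.385% in CHLA9 and from 0.188% to 0.466% in TC71.

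Nuclear members took a smaller share of non-mitochondrial UMIs in G2M than in G1 cells of both lines. The G2M cells held more UMIs, with medians of 40639 against 29240 in CHLA9 and 34833 against 29460 in TC71. The phase ratios therefore compare shares and not molecules per cell. Phases were called from marker genes, with 1035 G1, 1677 S and 1855 G2M cells in CHLA9 and 469, 557 and 849 in TC71. The summed log2 ratio of G2M over G1 was -0.17 in CHLA9 (interval -0.18 to -0.17) and -0.14 in TC71 (-0.15 to -0.14), and S over G1 -0.07 and -0.08. The median over single members was -0.16 in CHLA9 (82 members of at least 10 CPM) and -0.15 in TC71 (83), against 0.02 and 0.10 over all nuclear genes of that level.

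At least 1.2-fold lower in G2M were 9 of 82 members in CHLA9, where the share over all genes was 9.83%, and 6 of 83 in TC71, where it was 3.92% (26.7% and 30.2% in either direction). None was 1.2-fold higher, against 16.9% and 26.3% of all genes. The counting interval lay below 0 for 73 members in CHLA9, against 31.6% of all genes, and for 66 in TC71, against 16.4%. It lay above 0 for 1 member in CHLA9 and 2 in TC71, against 35.9% and 38.0% of all genes. Shifts of single members were small, and the counts past 1.2-fold in CHLA9 were near the share over all genes.

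In CHLA9 the lowest ratios were those of ATP5F1C, the central stalk of ATP synthase (344 CPM in G1 and 260 in G2M, log2 -0.41), NDUFB4 (263 and 199 CPM, -0.40) and NDUFC1 (166 and 127 CPM, -0.39). In TC71 they were those of the assembly factor NDUFAF5 (33.5 and 25.9 CPM, -0.37), NDUFS4 (120 and 96.2 CPM, -0.32) and NDUFA3 (102 and 81.9 CPM, -0.31). NDUFS1, the largest iron-sulfur subunit of complex I, had the highest ratio in both lines, with 105 and 111 CPM in CHLA9 (0.07) and 105 and 123 CPM in TC71 (0.23). NDUFAF7 (0.05) followed in CHLA9, and ATP5PB (0.06) and NDUFV3 (0.00) in TC71.

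Summed over cells, the mitochondrial genes did not share the direction of the nuclear members in TC71. Their summed log2 ratio of G2M over G1 was -0.16 in CHLA9 and 0.03 in TC71. In CHLA9, MT-CO1 stood at 16979 CPM in G1 cells and 14469 CPM in G2M cells (log2 -0.23), and in TC71 at 13970 and 13728 CPM (-0.03). MT-ND6 was higher in G2M in both lines, with 236 and 264 CPM in CHLA9 (0.16), and 280 and 333 CPM in TC71 (0.25). So were MT-ND2 (0.08 in CHLA9 and 0.21 in TC71) and the counts of MT-ND4L (0.08 and 0.11), with counting intervals above 0. The TC71 phase calls changed with the genes used for scoring, from 469 to 247 G1 cells when only genes detected in at least 10 cells entered. The mitochondrial ratio was then 0.01. The median mitochondrial percent of TC71 cells was 9.32% in G2M and 9.20% in G1 with the main calls. With the other calls it was 9.32% and 9.43%, and after thinning 9.29% and 9.30%, so the direction in TC71 depended on the calls and the summary.

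**Figure D5:**
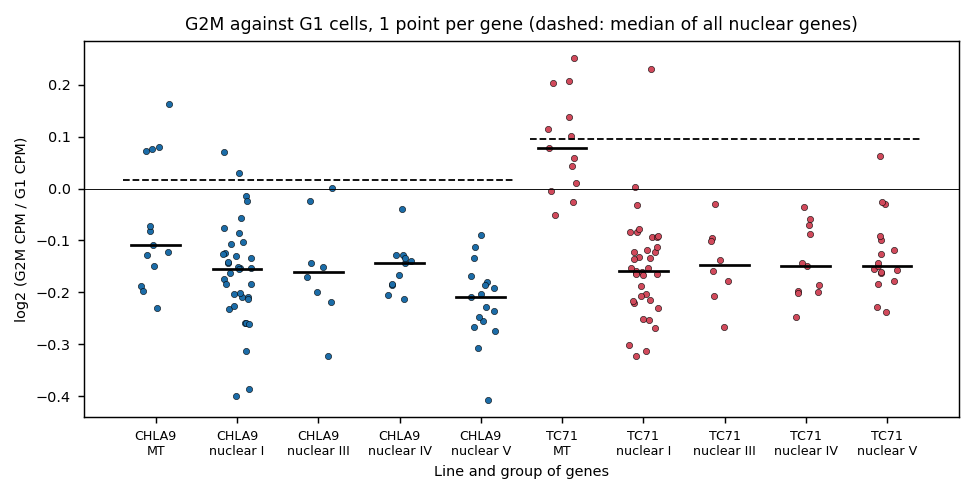
The log2 ratio of G2M over G1 level for each member of at least 10 CPM, by line and by group (MT, the 13 mitochondrial genes; nuclear subunits by complex). Solid lines are group medians and dashed lines the median of all nuclear genes of at least 10 CPM (0.02 in CHLA9 and 0.10 in TC71); every nuclear median lies below the dashed line.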

How the data were processed

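UMI counts per gene and barcode were deposited by the authors as unnormalized counts from Cell Ranger 3.1.0 (hg38), 1 library per line. The members and lists were chosen with earlier results of these data known. Cells of at least 5000 UMIs and 2000 genes and at most 30% mitochondrial UMIs were kept, and doublets were not removed (Scrublet called 254 CHLA9 and 13 TC71 cells). UMIs were summed over the cells of a line. Levels of nuclear genes are CPM of non-mitochondrial UMIs, and those of mitochondrial genes CPM of all UMIs. Intervals are exact (Clopper-Pearson or Poisson, 95%), and depth was 175907240 and 60683295 UMIs. Genes of at least 10 CPM in a line were compared. Phases came from Seurat 5.3.0. Thinning removed UMIs at random to 5000 per cell. For single genes and complexes, 7000 non-mitochondrial UMIs were drawn per cell, so that all cells had the same denominator. Named were the 13 mitochondrial genes, isoform sets, the 5 members with the largest line difference and the 3 with the largest phase ratio each way, the 5 highest and lowest in correlation with the nuclear sum, the 5 other genes highest in it, members under 3 UMIs, and list genes past 2-fold; 1 member that the rule names is not reported here. Positions follow GENCODE 44, and all 106 members matched. The antisense genes NDUFB2-AS1 and NDUFV2-AS1 were left out. Alternatives were tried for cell filters, denominators, thresholds, thinning and phase calls.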

Additional observations from a re-analysis of the deposited data

Results flagged for a closer look

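Mitochondrial transcripts had counting intervals on opposite sides of 0 for the G2M over G1 ratio in the lines. The difference between lines was not tested, since each line had 1 library. The summed log2 ratio was -0.16 in CHLA9 and 0.031 in TC71, that of mitochondrial complex I -0.057 and 0.10, and that of mitochondrial complex V -0.13 and 0.079. By gene it was -0.13 and 0.078 for MT-ATP6, -0.15 and 0.043 for MT-CO3, -0.11 and 0.058 for MT-ND1, -0.071 and 0.10 for MT-ND4 and -0.12 and 0.14 for MT-ND5. ATP5PB, the peripheral stalk subunit of ATP synthase, was the only nuclear member of this kind, with -0.21 in CHLA9 and 0.062 in TC71. The mitochondrial sum in TC71 was nearer to 0 with other phase calls. It was 0.013 with genes in at least 10 cells and 0.014 after thinning, and the median percent was then lower in G2M than in G1.

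Summed over the barcodes left out of the comparisons, the mitochondrial percent was higher than in the kept cells of their library. Those under 5000 UMIs held 60.1% mitochondrial UMIs in CHLA9 (277 barcodes) and 15.5% in TC71 (5869 barcodes). The median TC71 barcode under 5000 UMIs was lower than the kept cells, with 3.39% against 9.24%, so the sum in TC71 does not describe the typical barcode. Those of at least 5000 UMIs but under 2000 genes held 62.1% in CHLA9 (95 barcodes) and 55.8% in TC71 (269 barcodes). The nuclear members made up 1.33% of the non-mitochondrial UMIs of the CHLA9 barcodes under 5000 UMIs, and 3.44% of those in TC71.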

How the results depend on the processing

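No paired analysis was possible because there was a single library of each line, and no replicate could be left out. Of 80 recomputed values, 48 stayed within the limits set, 31 moved and 1 reversed. The mitochondrial percent of UMIs moved beyond counting error in CHLA9 and TC71 to 7.61% and 9.12% with a limit of 15%, 7.66% and 9.51% with at least 10000 UMIs, 7.56% and 9.20% within 3 median absolute deviations, 7.64% and 9.53% without the top 8% by Scrublet score, and 7.78% and 10.0% as a mean over cells. The nuclear percent moved in both lines to 2.22% and 3.19% within 3 median absolute deviations, 2.04% and 2.88% of all UMIs, 2.13% and 3.06% for structural subunits, and, chosen after seeing the data, 2.74% and 4.04% without MALAT1 and ribosomal proteins in the denominator. It moved in CHLA9 to 2.22% without top Scrublet scores and 2.24% as a mean over cells, and in TC71 to 3.19% with the 15% limit. TC71 was higher in each of these settings. The correlation across cells moved to 0.0364 and -0.338 with all UMIs as denominator of both, to -0.0700 (reversed) and -0.453 with log scores, and to -0.243 in TC71 G1 cells; the cause was not tested. In TC71 it was weaker with the 15% limit (-0.0801), at least 10000 UMIs (-0.0895) and within 3 median absolute deviations (-0.0688). With genes of at least 1 CPM, 2 members (COX8C and COX6B2) passed 2-fold toward CHLA9, against 18.8% of all genes, and centring on the median of all genes (0.18), chosen after seeing the data, gave 15 toward TC71, against 12.1%. The G2M over G1 log2 ratio moved to -0.16 with CPM of all UMIs and -0.16 with phases after thinning (scored also on genes in at least 10 cells only) in CHLA9, and to -0.15 with genes in at least 10 cells, -0.13 after thinning and -0.13 as a mean over cells in TC71. Depth limits COX4I2, COX6A2, COX7A1 and COX7B2, for which 0 UMIs allow up to 0.0547 CPM in TC71 by a floor of 3 counts.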

Other observations

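Short messengers were common among the nuclear members. Their canonical transcripts had a median length of 758 bases over 83 members, against 3311 bases over 9443 nuclear genes of at least 10 CPM. Over the 635 genes with transcripts under 1000 bases the median log2 ratio of CHLA9 over TC71 was -0.26, and over the 50 members of that length -0.40. Over the 8808 genes of at least 1000 bases it was 0.20, and over the 33 members of that length -0.41. The members thus lay toward TC71 in both length classes, while all genes lay toward TC71 only in the short class.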
